A study of Homo sapiens with 8 samples.

Results

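Gene expression was compared between 2 human B-cell leukaemia lines that had received only the vehicle DMSO, as the difference of 2 arrays labelled SUP-B8 minus 2 arrays labelled NALM-6. These are 4 of the series' 8 arrays, and the table holds 54675 probe sets, of which 41097 carried a single gene symbol and represented 19775 genes. The study treated both lines for 72 hours with GSK126, an inhibitor of the histone methyltransferase EZH2, at 0.5 uM, or with DMSO for the same time, in 2 biological replicates per group. Total RNA was measured on Affymetrix HG-U133 Plus 2.0 arrays, on which a probe set is a group of short oligonucleotides for one transcript. All cultures are leukaemia cells grown outside the body, each line descends from 1 patient, and replicates are cultures of a line. Differences are therefore between these 2 lines, and their p-values measure the spread between such cultures.

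Values are on the log2 scale, so a difference of 1 is a 2-fold change. Each difference is given as SUP-B8 minus NALM-6 with the standard error of a limma model that used all 8 arrays and 1 mean per group. A gene was called at a Benjamini-Hochberg adjusted p under 0.05 over 13161 tested genes, those with at least 2 of the 8 arrays above the array's own median. The medians of the 4 DMSO arrays lay between 7.18 and 7.21. Where both arrays of a label lay below their medians, the text prints "at least" and how far the brighter label's mean lay above those medians. Genes that passed the filter only through their brighter label had to differ, so the median of each gene list below covers all its members with a probe set, tested or not. Over all 19775 genes that median was 0.02. A level above the median is no proof of expression: the T-cell receptor gene CD3E read 8.12 and 8.25 as the means of the SUP-B8 and NALM-6 labels, and the collagen gene COL1A1 9.45 and 9.50.

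The labels were checked against genes that define precursor B cells. The line NALM-6 is usually taken for a precursor B-cell leukaemia with terminal transferase, which DNTT encodes. DNTT read 13.58 and 13.76 in the arrays labelled SUP-B8 and 6.89 and 6.84 in those labelled NALM-6, the latter below the array medians. RAG1, RAG2, VPREB1 and IGLL1 showed the same order. The data thus go against the usual description of the second label, and every direction below is that of the label, not of an independently identified line.

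B cells develop from precursors that rearrange their immunoglobulin genes with the RAG1 and RAG2 recombinase and DNTT. Precursors first carry a pre-B-cell receptor, in which the heavy chain pairs with a surrogate light chain made from VPREB1 and IGLL1, and grow with signals from the interleukin-7 receptor. Mature B cells carry a complete B-cell receptor with CD79A and CD79B, present antigen on MHC class II, and use NF-kB, CD40 and chemokine receptors when they are activated, after which some pass through germinal centres and become plasma cells.

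The promoters of 3 of the genes that separated the labels most are shown because transcription factors of the E-protein family, such as TCF3, are known to act on early B-cell genes through E-boxes. Each sequence holds the 250 bases before the gene's start on its own strand, from RefSeq (GRCh38.p14), with capitals marking the letters CAGGTG or, on the opposite strand, CACCTG. The windows are chr22:22244536-22244785 on the plus strand for VPREB1, chr22:23580291-23580540 on the minus strand for IGLL1 and chr10:96304184-96304433 on the plus strand for DNTT.
VPREB1: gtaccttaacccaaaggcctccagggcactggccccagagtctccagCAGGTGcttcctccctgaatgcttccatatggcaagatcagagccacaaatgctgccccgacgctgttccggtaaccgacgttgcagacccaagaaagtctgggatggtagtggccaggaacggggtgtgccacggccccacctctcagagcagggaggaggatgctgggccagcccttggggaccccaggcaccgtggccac
IGLL1: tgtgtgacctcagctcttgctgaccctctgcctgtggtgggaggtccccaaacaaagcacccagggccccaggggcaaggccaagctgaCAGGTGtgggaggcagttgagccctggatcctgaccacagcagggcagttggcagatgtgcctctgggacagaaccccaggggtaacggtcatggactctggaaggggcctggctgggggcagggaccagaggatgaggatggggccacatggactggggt
DNTT: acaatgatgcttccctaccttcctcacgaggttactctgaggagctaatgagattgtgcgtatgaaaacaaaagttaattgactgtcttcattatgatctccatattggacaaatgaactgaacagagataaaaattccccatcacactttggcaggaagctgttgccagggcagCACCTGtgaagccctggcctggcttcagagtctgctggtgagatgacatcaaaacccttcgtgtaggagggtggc
The capitals begin 203 bases before the start of VPREB1, 161 before that of IGLL1 and 75 before that of DNTT. The motif, the only one searched, was present on either strand in 6143 of 35116 such windows (17.5%), so its presence describes these promoters and marks no tested site. TCF3 itself was measured in all 4 arrays and was lower in the arrays labelled SUP-B8 (-0.66), with a mean over its probe sets of -0.28. Another E protein, TCF4, was higher (1.87).

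Across the tested genes the labels differed widely. Of 13161 genes, 8990 were called (68.3%), the SUP-B8 label being higher in 4969 (37.8%) and lower in 4021 (30.6%). Differences of 2-fold or more were called for 2636 genes (20.0%), 1365 higher (10.4%) and 1271 lower (9.66%). The 2 labels' arrays did not overlap in 10674 genes (81.1%). The median difference over tested genes was 0.04 and the median absolute difference 0.35. Counted by probe set, 17422 of 24848 were called (70.1%), 9280 higher (37.3%) and 8142 lower (32.8%). Against this background a called gene is common, and size and direction carry most of the information. Several gene lists below lay near the 68.3% called: respiratory chain (70%), glycolysis (73.5%), fatty acids (71.4%), Notch (74.1%), pentose phosphate (66.7%) and Wnt (64.5%). How many of their members were called is therefore no result about these lists. The smallest two-sided p that an exact permutation test of 2 arrays against 2 allows is 0.333, so calls rest on the model's shared spread.

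**Figure D1:**
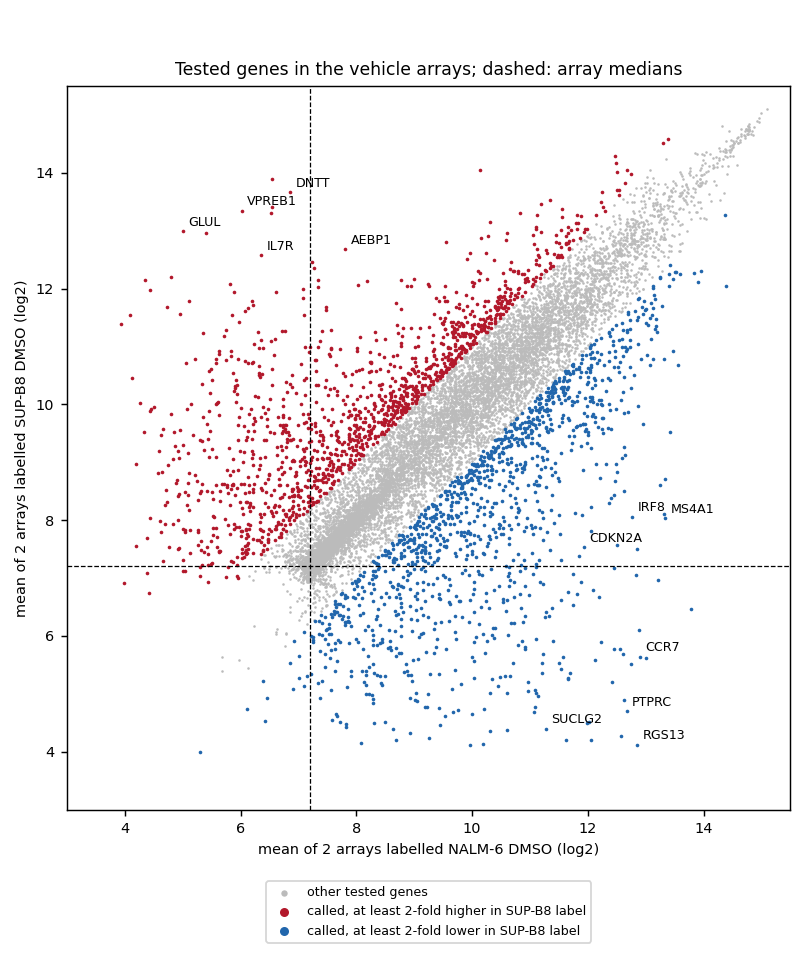
Mean log2 value of each tested gene in the 2 arrays labelled NALM-6 DMSO (x axis) against the 2 labelled SUP-B8 DMSO (y axis), 1 point per gene, without Y-linked genes. Coloured points were called and at least 2-fold apart, and dashed lines are the mean array medians. DNTT, VPREB1, IL7R and GLUL lie left of the vertical line, and RGS13, PTPRC, CCR7 and SUCLG2 below the horizontal one.

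Most of these differences were also present in the 4 arrays treated with GSK126, whose values do not enter the DMSO differences. These arrays are no independent check. They come from the same 2 lines and entered the model's shared spread, the filter and the choice of probe set. Of the 8990 called genes, 8107 (90.2%) had GSK126 arrays of the 2 labels apart in the same direction, and 425 apart in the opposite one. Of the 2636 genes at least 2-fold apart, 2616 (99.2%) were apart the same way and 9 the opposite way. Over all tested genes the GSK126 arrays of the 2 labels did not overlap in 84.7%, and 8913 genes were called (67.7%). Where a called gene had a further probe set past the filter, all of them pointed the same way in 3921 of 5007 genes, and in 1300 of 1441 genes at least 2-fold apart.

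Among genes with all 4 arrays above their medians, the SUP-B8 label was higher by at least 2 log2 units in 130 and lower by as much in 213. CHST2, a carbohydrate sulfotransferase, read 12.30 and 12.42 against 7.23 and 7.29, a difference of 5.11 ± 0.08. AEBP1, a carboxypeptidase-like protein, and the stress kinase MAP3K20 followed at 4.88 ± 0.09 and 4.69 ± 0.05. In each of these genes the 2 labels stood far apart next to the distance between replicates. HBEGF, a ligand of the EGF receptor (4.21 ± 0.10), the membrane scaffold MPP1 (4.16 ± 0.12), the G-protein subunit GNB4 (4.03 ± 0.08), SSBP2 (3.94 ± 0.07), the AKT coactivator TCL1A (3.91 ± 0.04) and the fatty acid elongase ELOVL6 (3.86 ± 0.07) were also higher. TCL1A was abundant under both labels, at 14.06 and 14.05 against 10.15 and 10.13. In addition, 1 further gene that met the rule is not reported here.

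The dim side of most of these genes read no higher than CD3E, so their differences are read as lower bounds, with no order among them. At the other end, the leukocyte adhesion gene ICAM3 read 7.5 and 7.49 in the arrays labelled SUP-B8 against 12.72 and 12.98 (-5.36 ± 0.10). NFKBIZ, a nuclear member of the I-kappa-B family, differed by -5.21 ± 0.08. The arrays labelled NALM-6 held these transcripts among the bright ones. The thymocyte transcription factor TOX (-4.92 ± 0.05), the ATP-gated channel P2RX5 (-4.65 ± 0.05), ALOX5AP, needed for leukotriene synthesis (-4.62 ± 0.06), and RIPOR2, an inhibitor of RHOA (-4.23 ± 0.07), were lower too. All 19 genes chosen by size had adjusted p of 1.23e-08 or smaller in limma. MS4A1, IRF8, CD80 and CDKN2A, which also belong to this group, are described with their lists. Averaged over their probe sets, HBEGF (1.92), MAP3K20 (2.90), CHST2 (3.68), GNB4 (2.69), SSBP2 (2.92) and TOX (-4.11) differed by less, among others, and TCL1A (4.04) by slightly more.

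Of 25 tested precursor B-cell genes, 23 were higher and 2 lower under the SUP-B8 label, 18 and 1 of them by at least 2-fold, and the median over 30 members with a probe set was 1.40. In 15 of the 25 the arrays labelled NALM-6 lay below their medians. These members passed the filter through the other label and had to be higher, so the count of 23 is partly set by the filter. VPREB1 read 13.32 and 13.37 against 5.91 and 6.13, and IGLL1, its partner in the surrogate light chain, 13.35 and 13.26 against 6.47 and 6.56. Both surrogate light chain genes were among the brightest genes of the first label and at background height in the second. The recombinase genes RAG1 (10.48 and 10.66 against 5.28 and 5.62) and RAG2 (10.39 and 10.51 against 3.99 and 4.25) were higher by at least 3.37 and 3.25. IL7R, the interleukin-7 receptor chain, read 12.58 and 12.59 against 6.43 and 6.30. These 5 genes did not overlap between labels, which also held for 81.1% of all tested genes. They passed the filter only through the arrays labelled SUP-B8, so they had to differ.

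The other members of the list were less uniform. AKAP12, a kinase anchoring protein, was higher by at least 4.59. MME, which encodes CD10, was bright under both labels (12.91 and 13.03 against 10.55 and 10.65, 2.37 ± 0.06). CD34, the stem and progenitor marker, differed little, at 8.18 and 8.29 against 7.87 and 7.71 (0.45 ± 0.09). It read about as high as CD3E, so its expression is uncertain under both labels. The 2 members lower in the arrays labelled SUP-B8 were adenosine deaminase, ADA (-0.71 ± 0.05), and CD99, a surface protein of many precursor leukaemias, at 8.69 and 8.32 against 12.60 and 12.66 (-4.12 ± 0.10). Named members of this list had adjusted p of 0.00189 or smaller in limma. As means of their probe sets CD9 (2.54) and AKAP12 (2.98) differed by less.

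**Figure D2:**
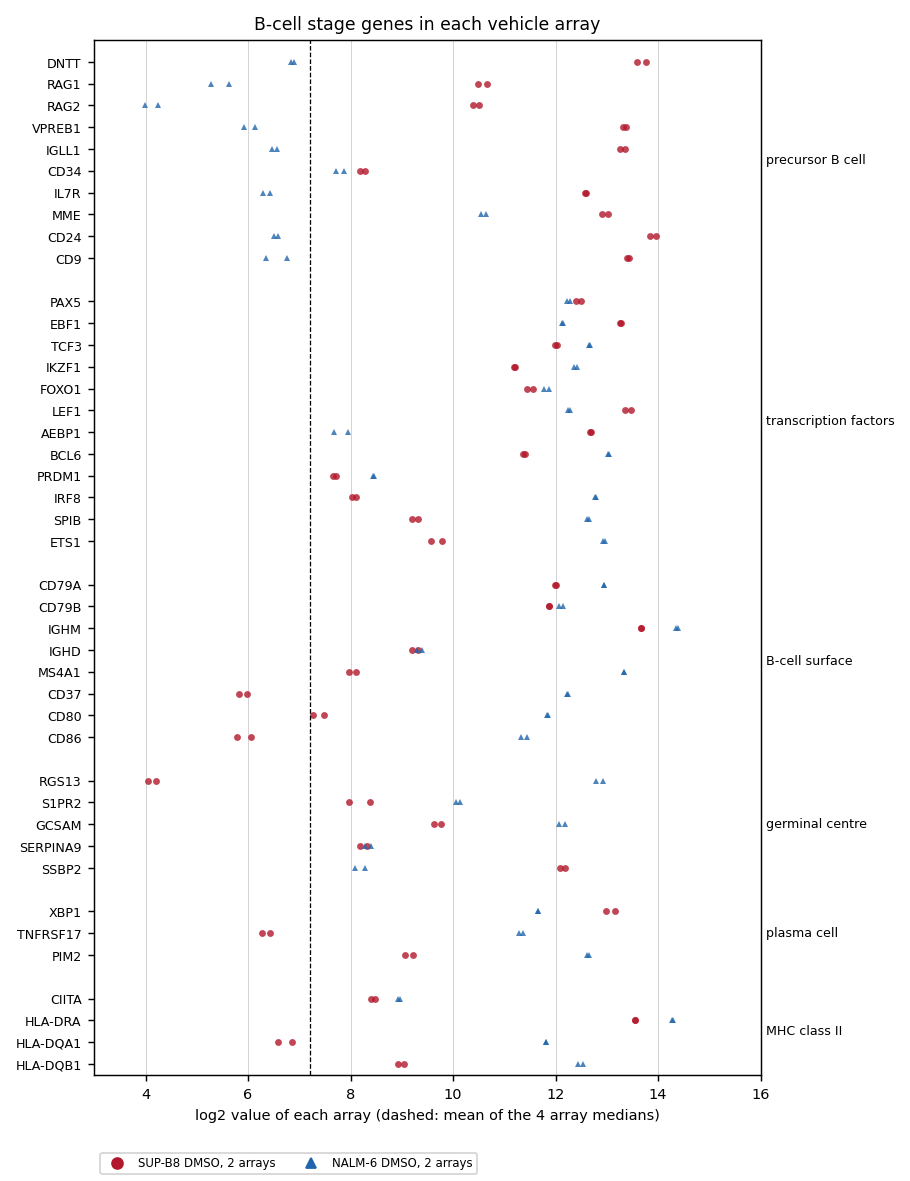
Log2 value of B-cell stage genes in each DMSO array (x axis), 1 row per gene, with circles for the 2 arrays labelled SUP-B8, triangles for the 2 labelled NALM-6 and a dashed line at the mean of the array medians. Surrogate light chain and recombinase genes separate to the right for SUP-B8, the surface, germinal-centre and MHC class II genes mostly to the right for NALM-6, and PAX5, CD79B and SERPINA9 lie close together.

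Transcription factors of the B lineage were split, with 11 higher and 22 lower of 35 tested and a median of -0.48. PAX5 and EBF1, which set B-cell identity, were bright under both labels. PAX5, the commitment factor, read 12.40 and 12.49 against 12.22 and 12.28 (0.20 ± 0.05, adjusted p = 0.00994 in limma). That small difference was no longer called without SUP-B8 DMSO replicate 2 (0.15), without NALM-6 DMSO replicate 1 (0.17) or with the mean of its probe sets (0.09). EBF1, which acts with TCF3 in early B cells, was higher (13.26 and 13.27 against 12.13 and 12.15), as was LEF1, a Wnt-responsive factor of early lymphocytes (13.36 and 13.47 against 12.25 and 12.28). The germinal-centre repressor BCL6 was lower, at 11.37 and 11.40 against 13.05 and 13.03, and so was IKZF1, the Ikaros gene, at 11.19 and 11.20 against 12.41 and 12.36. Smaller differences were found for FOXO1 (-0.33 ± 0.06) and for PRDM1, the plasma-cell regulator (-0.75 ± 0.06).

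The largest differences among these factors ran in both directions. IKZF2, the Helios gene, was higher by 2.66, the repressor BACH2 by 1.95 and the E protein TCF4 by 1.87. The list also counts AEBP1, the carboxypeptidase-like protein given above, among its 11 higher members, and it is not read here as a B-lineage factor. IRF8, a factor of germinal-centre and myeloid cells, read 8.02 and 8.11 against 12.77 and 12.78 (-4.71 ± 0.06). SPIB and ETS1 differed by -3.37 ± 0.06 and -3.28 ± 0.07, and RUNX3 was lower by at least 3.41. SPIB and ETS1 were still above the array medians in the arrays labelled SUP-B8, at 9.20 and 9.32 and at 9.56 and 9.78, and RUNX3 was below them. Except for PAX5, the factors named here had adjusted p of 0.00124 or smaller. As means of their probe sets, IKZF2 (1.17), SPIB (-2.03), IKZF1 (-0.60) and TCF3 (-0.28) were closer, and EBF1 (1.79) and PRDM1 (-1.33) further apart.

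Genes of the B-cell receptor and the mature B-cell surface were lower in 25 of 32 tested and higher in 3, with a median of -1.04 over 34 members. The signalling chain CD79A was bright in all 4 arrays but lower in those labelled SUP-B8, at 12.01 and 11.98 against 12.94 and 12.95. MS4A1, which encodes CD20, read 8.10 and 7.96 against 13.33 and 13.34. CD37, a tetraspanin of mature B cells, read 5.82 and 5.97 against 12.22 and 12.25 and was lower by at least 5.03. The costimulatory ligands CD80 (7.49 and 7.27 against 11.83 and 11.85) and CD86 (lower by at least 4.19) followed, as did the Fc-receptor-like FCRL3 (at least 3.70). For each of these the arrays of the 2 labels were far apart.

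Immunoglobulin genes gave no single picture. IGHM, the mu heavy chain, was the brighter in the arrays labelled NALM-6 by its brightest probe set (13.67 and 13.66 against 14.34 and 14.38, -0.70 ± 0.05), but the mean of its probe sets gave 0.58, the opposite direction. IGHD (-0.08 ± 0.06) and IGKC (-0.10 ± 0.09) were not called. As means of the SUP-B8 and NALM-6 labels IGHD read 9.26 and 9.34 and IGKC 8.53 and 8.63. Both lay below COL1A1, so their expression is uncertain. IGLL5, whose sequence is close to the lambda constant genes and to IGLL1, so that its probe set may read these as well, was higher (11.82 and 12.27 against 8.93 and 8.96). CD81 (0.34) and CD84 (0.28) were the other members called higher, and CD79B was close (-0.23). As means of their probe sets CD37 (-3.10) and IGLL5 (1.07) differed by less, while CD84 (0.09) and CD79B (-0.09) were no longer called. The named called members had adjusted p of 0.00326 or smaller.

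Germinal-centre genes were lower in 17 of 27 tested and higher in 7, with a median of -1.04. RGS13, which damps G-protein signals in these cells, is the extreme member, at 4.04 and 4.20 against 12.92 and 12.79. S1PR2, which confines cells to the germinal centre, was lower (-1.93), as were GCSAM (-2.44, from 9.62 and 9.76 against 12.07 and 12.19) and SWAP70, a signalling adaptor of B cells (-3.88, from 9.58 and 9.49 against 13.45 and 13.38). VNN2 (-3.50) and the elongation factor ELL3 (-2.54) were lower as well. SERPINA9, a germinal-centre marker, was close under the 2 labels, at 8.18 and 8.32 against 8.29 and 8.40, and was not called. It read about as high as CD3E, so its expression is uncertain. On the other side were SSBP2, MME (2.37), the repressor BACH2 (1.95), CD38 (1.40), the adaptor STAP1 (1.32) and CXCR4 (0.70). S1PR2 had a mean over its probe sets of -1.25.

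Plasma-cell genes were mixed, with 7 higher and 11 lower of 18 tested and a median of -0.66 over 19 members. XBP1, the factor that drives secretion, read 12.98 and 13.16 against 11.66 and 11.66, and FKBP11, a chaperone of the secretory pathway, was higher by 2.20. SSR4, a protein associated with the translocon, was higher by 0.94. TNFRSF17, the BCMA receptor, read 6.28 and 6.42 against 11.29 and 11.36 and was lower by at least 4.12. The survival kinase PIM2 (9.06 and 9.21 against 12.62 and 12.66), the XBP1-splicing enzyme ERN1 (-2.13) and HERPUD1 (-1.54) were lower, and IRF4 slightly (-0.66). The called germinal-centre and plasma-cell genes named had adjusted p of 4.41e-06 or smaller. With the mean of its probe sets XBP1 differed by 0.72 and ERN1 by -1.41.

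Of 16 tested MHC class II genes 15 were lower, 8 of them by at least 2-fold, with a median of -1.12. The differences varied in size. HLA-DRA was close to the top of the scale under both labels (13.54 and 13.54 against 14.29 and 14.28), and the invariant chain CD74 differed by -0.94. HLA-DQB1 read 9.04 and 8.93 against 12.43 and 12.54 (-3.50 ± 0.07), and the peptide-loading genes HLA-DMB and HLA-DOB were lower, the first at -2.21 and the second by at least 3.63. The master regulator CIITA differed by -0.51, and RFXANK was the member called higher (0.30). These members had adjusted p of 6.92e-04 or smaller, and HLA-DOB had a mean over probe sets of -2.02. HLA sequences vary between people, and how far that alters the hybridization of these probes was not tested.

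Of 39 tested genes of B-cell receptor signalling, 30 were lower and 4 higher, none of the 4 by 2-fold, and a median of -0.88. PTPRC, the CD45 phosphatase that activates SRC-family kinases, read 4.65 and 4.75 against 12.72 and 12.62, lower by at least 5.47. The RAS activators RASGRP3 (5.35 and 5.81 against 12.09 and 12.15) and RASGRP1 were lower by at least 4.92 and 2.55, and the kinase PRKCB by at least 3.72. In all 4 genes the arrays labelled SUP-B8 lay below their medians. The SRC-family kinase LYN (10.76 and 10.86 against 12.12 and 12.11) and the phospholipase PLCG2 (10.79 and 10.86 against 12.45 and 12.49) were lower but present under both labels. BLK (-1.67), LCK (-2.47), the phosphatase INPP5D (-1.48), the calcium-responsive factor NFATC2 (-3.56) and the adaptor BANK1 (at least 2.92) were lower too. Of these, BLK, LCK, NFATC2 and BANK1 were named after their values were seen.

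Of the kinases and adaptors next to LYN and PLCG2 in the cascade, BTK read 11.48 and 11.36 against 11.46 and 11.50, and the adaptor BLNK 12.76 and 12.74 against 12.82 and 12.89, and neither was called. SYK was slightly higher in the arrays labelled SUP-B8 (11.21 and 11.25 against 11.03 and 11.06, 0.19 ± 0.05), but the mean of its probe sets was -0.52 and its other probe sets ranged from -2.10 to 0.13. The other members called higher were RASGRP2 (0.43), the phosphatase PTPN6 (0.42) and LAT2 (0.16). The call of LAT2 was lost without SUP-B8 DMSO replicate 1 (0.14), without NALM-6 DMSO replicate 1 (0.12) and with the mean of its probe sets (0.08), by which 2 members of the list were called higher. PTPRC (-4.58), RASGRP3 (-3.79), PRKCB (-2.61) and BLK (-0.91) differed by less as means of their probe sets. The called genes of this list named above had adjusted p of 0.0181 or smaller.

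**Figure D3:**
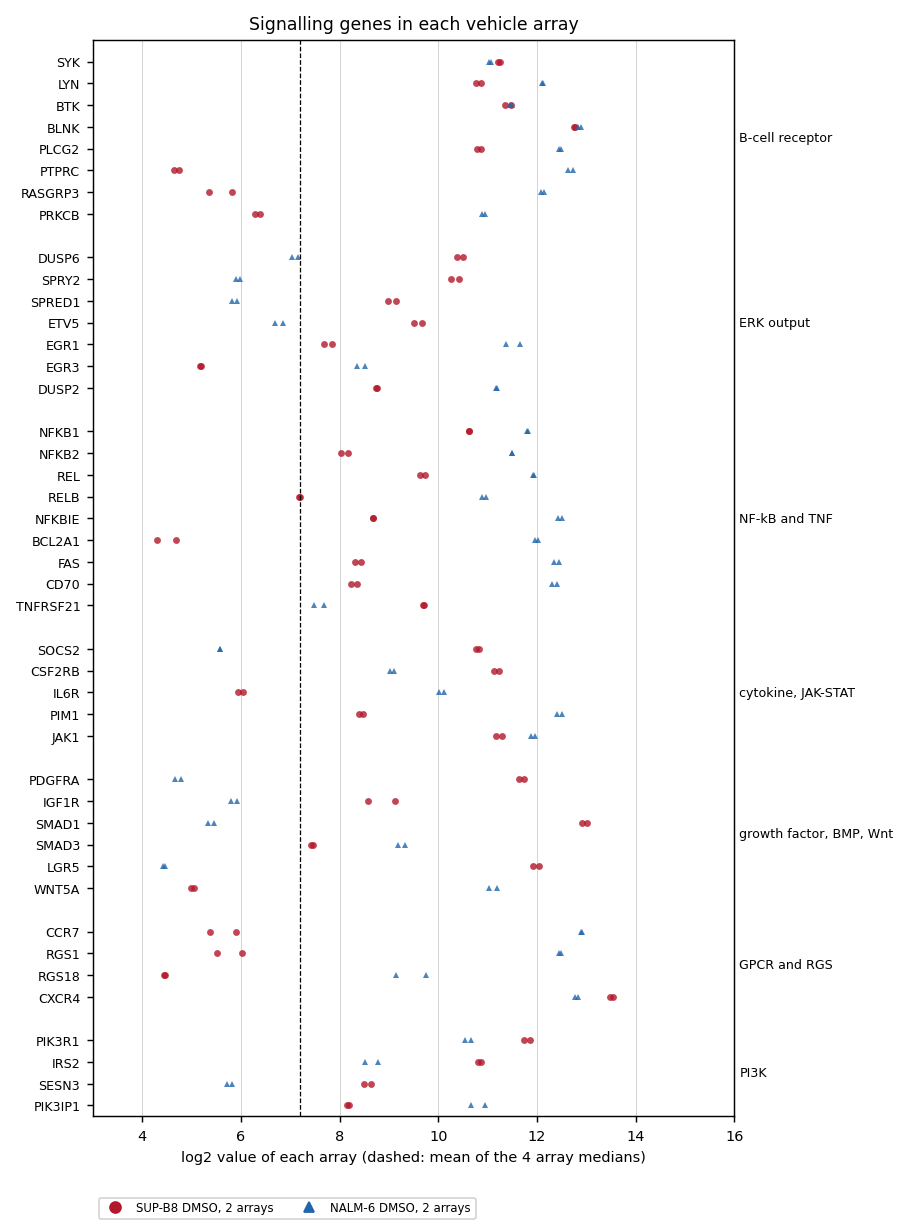
Log2 value of signalling genes in each DMSO array (x axis), 1 row per gene, with circles for the 2 arrays labelled SUP-B8, triangles for the 2 labelled NALM-6 and a dashed line at the mean of the array medians. DUSP6, SPRY2, SOCS2, PDGFRA, SMAD1 and LGR5 lie below the line in NALM-6, PTPRC, BCL2A1, WNT5A and CCR7 below it in SUP-B8, and SYK, BTK and BLNK nearly coincide.

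In the RAS-ERK pathway, several feedback genes were higher and EGR1 and EGR3 lower. Of 32 tested members 7 were higher and 18 lower, with a median of -0.20. DUSP6, the ERK phosphatase induced by ERK itself, read 10.37 and 10.49 against 7.03 and 7.16, and SPRY2, another feedback inhibitor, 10.26 and 10.42 against 5.99 and 5.89, higher by at least 3.23 and 3.14. SPRED1 and the ETS factor ETV5 were higher by at least 1.86 and 2.39, and SPRY1 by 1.66. In each of these the arrays labelled NALM-6 lay near or below their medians. EGR1, an immediate-early factor, was opposite, at 7.84 and 7.69 against 11.66 and 11.38 (-3.75 ± 0.10). EGR3 was lower by at least 1.23, and the phosphatases DUSP2 (-2.42) and DUSP10 (-2.58) were lower.

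Among the kinases of the cascade, MAP2K1 was lower (10.70 and 10.79 against 12.50 and 12.63) and MAP2K2 was not called (-0.03 ± 0.05). HRAS was higher by 0.93. The named called members of this pathway had adjusted p of 6.72e-07 or smaller. By the mean of its probe sets ETV5 differed by 0.99 and DUSP6 by 5.36.

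Genes of NF-kB were lower in 20 of 27 tested, 18 of them by at least 2-fold, and higher in 3, with a median of -1.75 over 29 members. Among the subunit genes, NFKB2 read 8.03 and 8.16 against 11.49 and 11.50 and RELB 7.17 and 7.19 against 10.88 and 10.96, while NFKB1 (-1.18) and REL (-2.24) were lower by less. The inhibitors NFKBIE (-3.79), NFKBIA (-1.42) and TNFAIP3 (-1.12) and the adaptor TRAF1 (at least 1.66) were lower as well. BCL2A1, an anti-apoptotic target, read 4.30 and 4.69 against 11.95 and 12.02 and was lower by at least 4.78. The 3 members called higher were the kinase subunits IKBKB (9.62 and 9.58 against 8.81 and 8.85) and CHUK (0.31) and the NF-kB subunit RELA (0.25). CHUK was no longer called without SUP-B8 DMSO replicate 2 (0.14), NALM-6 DMSO replicate 1 (0.28) or NALM-6 DMSO replicate 2 (0.33).

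TNF receptors and ligands were lower in 18 of 27 tested and higher in 5, with a median of -0.68 over 32 members. Several receptors of activated B cells were among the lower ones, with CD40 at 9.48 and 9.56 against 11.97 and 12.05. FAS (8.43 and 8.32 against 12.35 and 12.45), CD70 (8.24 and 8.35 against 12.31 and 12.41) and the lymphotoxins LTB (-3.82) and LTA (at least 2.84) stood lower too. Both lymphotoxins are also NF-kB targets and count in both lists. TNFRSF21, the death receptor 6 gene, was the clearest exception, at 9.71 and 9.69 against 7.49 and 7.69. TNFSF4 (1.30), TNFRSF1B (0.75) and TNFRSF8 (0.67) were also higher. As means of the SUP-B8 and NALM-6 labels TNFRSF1B read 8.39 and 7.63 and TNFRSF8 8.12 and 7.45. Both were about as high as CD3E, so their expression is uncertain. The NF-kB and TNF genes named as called had adjusted p of 0.0198 or smaller. The means over probe sets were -2.04 for NFKB2, -0.87 for NFKBIA, -2.08 for LTB and 0.44 for IKBKB, and without the filter on dim genes 8 members of the TNF list were called higher.

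Of 36 tested cytokine receptor and JAK-STAT genes, 11 were higher and 21 lower, with a median of -0.34 over 40 members. Beside IL7R, SOCS2, a feedback target of STAT5, read 10.77 and 10.82 against 5.58 and 5.58 and was higher by at least 3.60. CSF2RB, the shared chain of the interleukin-3 and GM-CSF receptors, read 11.22 and 11.13 against 9.02 and 9.10, and IL6ST (at least 1.53) and STAT5B (0.77) were higher. IL2RG, the chain that pairs with IL7R, was slightly lower (10.19 and 10.12 against 10.54 and 10.40), as was STAT5A (-0.58). IL4R (-1.41) and JAK1 (-0.69) were lower. PIM1, a survival kinase induced by cytokines, read 8.48 and 8.39 against 12.50 and 12.41, and IL6R and the interleukin-10 receptor IL10RA were lower by at least 2.86 and 2.40. STAT3 was not called (-0.07 ± 0.05). These called genes had adjusted p of 0.00239 or smaller, and IL6ST (0.55), STAT5B (0.38) and JAK1 (-0.45) were closer as means of their probe sets.

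Of 27 tested receptor kinases 10 were higher and 5 lower, 13 of 41 lay below the medians under both labels, and the median was 0.03. PDGFRA, a platelet-derived growth factor receptor, read 11.73 and 11.63 against 4.66 and 4.78, but the mean of its probe sets was 2.08. IGF1R (9.13 and 8.57 against 5.80 and 5.92), EPHB4 (9.67 and 9.75 against 7.80 and 7.65) and TYRO3 (1.27) were higher. RYK, a Wnt co-receptor, was lower by at least 2.04 and the insulin receptor INSR by 0.80.

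The TGF-beta and BMP list had 14 higher and 10 lower of 29 tested (median 0.17 over 35 members). SMAD1, which carries BMP signals, read 13.02 and 12.92 against 5.46 and 5.33. The receptors ACVR1 (at least 1.47) and ACVR1B (2.01), the co-receptor ENG (9.89 and 9.88 against 8.05 and 7.70) and the BMP target ID3 (1.84) were also higher. SMAD3, which carries TGF-beta signals, was lower (7.41 and 7.47 against 9.33 and 9.19), as were the co-receptor TGFBR3 (-2.70), LTBP1 (-2.71), ID2 (-2.39) and SMAD9 (-1.31). The shared partner SMAD4 was slightly higher (0.35) and SMAD2 was not called (0.14 ± 0.06).

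In the Wnt list 15 were higher and 5 lower of 31 tested (median 0.12 over 41 members). The R-spondin receptors LGR5 (11.91 and 12.03 against 4.46 and 4.42) and LGR6 (9.88 and 9.98 against 6.61 and 6.34), the receptor FZD3 (10.88 and 10.86 against 7.47 and 7.57) and the nuclear factor TCF7L2 (at least 3.16) were higher. WNT5A, a ligand of the non-canonical pathway, was opposite, at 5.05 and 4.98 against 11.19 and 11.03, and WNT10A was lower (-1.69). The effector CTNNB1 was bright under both labels (0.32 ± 0.07), and AXIN2, the usual target of the canonical pathway, was not called (0.07 ± 0.09). AXIN2 read 7.76 and 7.70 as means of the SUP-B8 and NALM-6 labels, no higher than CD3E, so its expression is uncertain. Without NALM-6 DMSO replicate 1 it was called at 0.20. Across the receptor kinase, BMP and Wnt genes named as called with their values, adjusted p was 0.00308 or smaller. Means over probe sets were -0.45 for INSR, 0.13 for SMAD4, 0.16 for CTNNB1, 1.30 for IGF1R, 1.27 for EPHB4, 0.94 for ACVR1B, 2.08 for TCF7L2, -0.84 for SMAD9 and -0.82 for WNT10A, and by that measure 3 receptor kinases were called lower.

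Notch genes were evenly divided, with 10 higher and 10 lower of 27 tested and a median of -0.05. NOTCH2 was not called (-0.07 ± 0.05), and NOTCH1 differed by -0.24, a call that was lost with the mean of its probe sets (-0.11). The coactivators MAML2 (at least 1.66) and MAML1 (1.01), the glycosyltransferase MFNG (0.82) and the DNA-binding partner RBPJ (0.82) were higher. HES1, the classic target, read 5.28 and 5.45 against 8.10 and 8.50, lower by at least 1.09, and DLL3 (-1.33), MAML3 (-1.41), HEY2 (-0.98) and DTX4 (-0.68) were lower. All 9 called genes other than NOTCH1 had adjusted p of 3.10e-05 or smaller. RBPJ (0.45), DLL3 (-0.39), MAML3 (-0.54) and HEY2 (-0.53) were closer as means of their probe sets. Those means were 1.81 for MAML2 and -1.63 for HES1.

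Genes of lymphocyte migration were lower in 15 and higher in 9 of 30 tested, with a median of -0.09 over 34 members and 12 lower by at least 2-fold. CXCR4, which retains B cells in marrow and in the dark zone of germinal centres, was high under both labels and the higher in SUP-B8 (13.53 and 13.47 against 12.77 and 12.82). CCR7, the lymph-node homing receptor, read 5.38 and 5.89 against 12.89 and 12.91, and CXCR5, the follicle receptor, was lower (-2.61). RGS1 (6.03 and 5.51 against 12.48 and 12.45) and RGS18 (4.45 and 4.47 against 9.14 and 9.75), which switch off G-protein signals, were lower by at least 5.26 and 2.24, and RGS2 was lower (-2.70). The prostaglandin receptor PTGER4 was lower (-3.33). S1PR4 (11.07 and 11.01 against 9.65 and 9.78), GNA15 (1.88), ARRB1 (1.34) and RGS19 (0.62) were higher. Adjusted p for these genes was 7.83e-06 or smaller, and RGS1 had a mean over probe sets of -4.30.

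PI3K, AKT, mTOR and FOXO genes were mostly higher, with 23 higher and 10 lower of 35 tested and a median of 0.34 over 37 members. PIK3R1, the regulatory PI3K subunit, read 11.73 and 11.85 against 10.66 and 10.55, and the adaptor IRS2 10.80 and 10.86 against 8.51 and 8.77. The FOXO-linked sestrin SESN3 was higher by at least 1.37, the pseudokinases TRIB2 and TRIB1 by 1.96 and 1.84, and DDIT4, an inhibitor of mTORC1, by 1.39. PIK3CD, the catalytic subunit typical of B cells, was lower (-0.64). PIK3IP1, an inhibitor of PI3K, read 8.19 and 8.14 against 10.66 and 10.95, and SESN2 (-1.26) and RPS6KA1 (-1.15) were lower. Activators and inhibitors of the pathway occurred on both sides. The named genes had adjusted p of 2.96e-06 or smaller, and SESN3 (0.68), TRIB1 (0.98) and PIK3IP1 (-1.52) were closer as means of their probe sets.

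**Figure D4:**
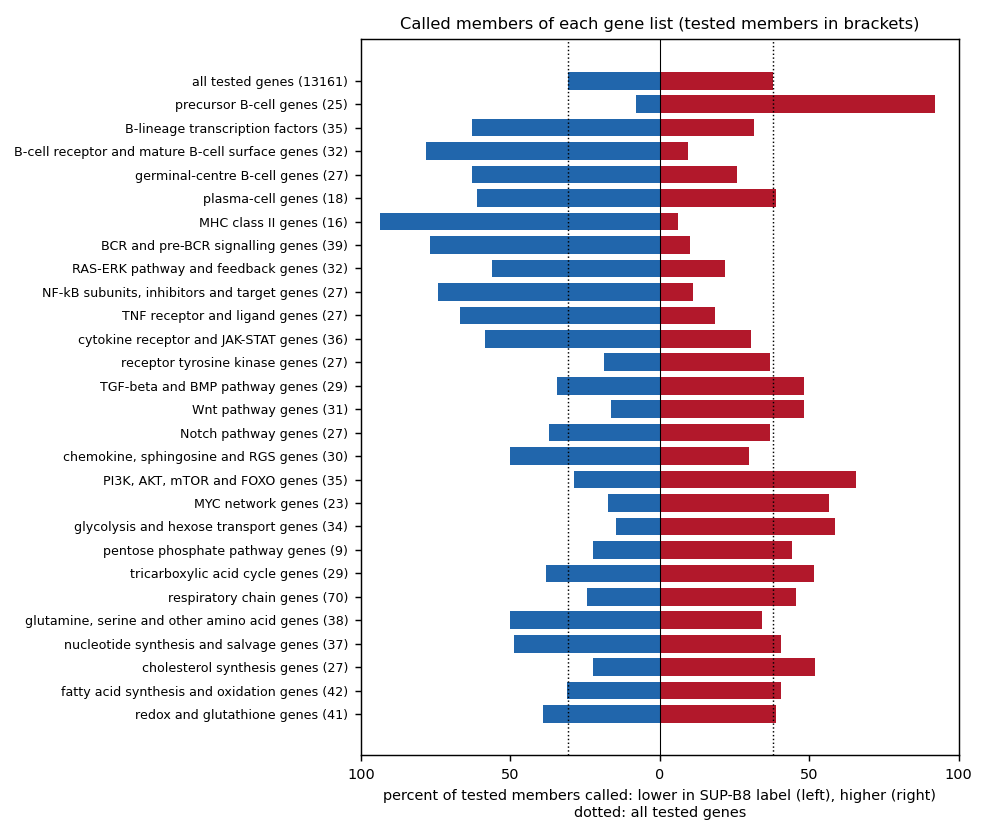
Percent of tested members called higher (right) and lower (left) in the arrays labelled SUP-B8 for each gene list, with the number of tested members in brackets and dotted lines at the shares over all 13161 tested genes (37.8% and 30.6%). Precursor genes lean right, and MHC class II, surface, B-cell receptor and NF-kB genes lean left.

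Among the metabolic programmes, the MYC network was higher in 13 and lower in 4 of 23 tested, with a median of 0.31. MYC read 13.49 and 13.50 against 12.21 and 12.26, and its partner MAX was higher by 0.72. Of its members that make polyamines, ODC1 was higher at 14.04 and 14.09 against 13.04 and 13.13, as were the spermidine synthase SRM at 12.42 and 12.48 against 11.31 and 11.36, and AMD1 at 12.23 and 12.38 against 10.70 and 10.74. The catabolic enzyme SAT1 was lower, at 10.66 and 10.59 against 11.96 and 12.03. MXI1, an antagonist of MYC, was lower too, at 10.49 and 10.45 against 11.96 and 12.04. The MYC-related factors MLXIP (1.13) and MNT (0.58) were higher, and the antizyme OAZ1 (-0.17) and the antizyme inhibitor AZIN1 (-0.65) lower. OAZ1 was no longer called without SUP-B8 DMSO replicate 2 (-0.15). The largest adjusted p here was 0.0138, and MNT had a mean over probe sets of 0.30.

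Glycolysis and hexose transport had 20 higher and 5 lower of 34 tested genes, 3 of them higher by at least 2-fold, with a median of 0.19 over 36 members. HK2, the inducible hexokinase, read 11.93 and 11.97 against 9.72 and 9.74 (2.22 ± 0.05). The phosphoglucomutases PGM1 (11.65 and 11.71 against 10.35 and 10.46) and PGM2 (1.04) and the phosphofructokinase PFKM (0.98) followed. Most other members differed by far less: LDHA by 0.30, PGK1 by 0.58 and the glucose transporter SLC2A1 by 0.62, while LDHB coincided at 14.40 and 14.40 against 14.39 and 14.40. SLC2A3, a high-affinity glucose transporter, was lower (8.66 and 8.64 against 9.24 and 9.30), and the pyruvate dehydrogenase kinase PDK1 was lower (-0.52). PKM was called at 0.21, but not without SUP-B8 DMSO replicate 2 (0.18) or NALM-6 DMSO replicate 2 (0.15), and the mean of its probe sets was -0.04. The largest adjusted p was 0.0128, and PDK1 had a mean over probe sets of -0.32. The count of lower members was 3 without SUP-B8 DMSO replicate 2, without NALM-6 DMSO replicate 1 or with the mean of each gene's probe sets. The 9 tested genes of the pentose phosphate pathway, which supplies NADPH and ribose, showed 4 higher and 2 lower with a median of 0.07, and none reached 2-fold.

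In the tricarboxylic acid cycle and the enzymes that feed it, 15 were higher and 11 lower of 29 tested, with a median of 0.10 over 30 members. CS, the entry enzyme, was not called (12.78 and 12.88 against 12.85 and 12.83, -0.01 ± 0.06). IDH1 was higher (11.43 and 11.56 against 10.24 and 10.28), as were ACO1 (1.78), the pyruvate carrier MPC1 (1.06), the malic enzyme ME3 (at least 1.45) and pyruvate carboxylase, PC (at least 0.98). SUCLG2, the GTP-forming subunit of succinyl-CoA ligase, read 4.47 and 4.32 against 11.27 and 11.29, lower by at least 4.08. Its alternative, the ATP-forming SUCLA2, differed by -0.35 and the common subunit SUCLG1 was not called (-0.03 ± 0.05). PDHX, a part of the pyruvate dehydrogenase complex, was lower (10.03 and 10.10 against 11.78 and 11.85), as were PCK2 (-1.23) and MDH1 (-0.70).

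Respiratory chain genes were bright, with 32 higher, 17 lower and 21 not called of 70 tested and a median of 0.10. The share called, 70%, was close to the 68.3% of all tested genes. ATP5MC1, a ring subunit of ATP synthase, was the member higher by at least 2-fold (12.26 and 12.27 against 10.93 and 10.88). NDUFB2 (0.96), NDUFA3 (0.94) and cytochrome c, CYCS (0.69), were higher, and NDUFB8 (11.90 and 11.93 against 12.82 and 12.85) and UQCRB (-0.67) lower. Subunits of complex I occurred on both sides. COX4I1 differed by -0.20, and NDUFV1 (-0.15) lost its call in several omissions, among them SUP-B8 DMSO replicate 1 (adjusted p = 0.054). In limma NDUFV1 had an adjusted p of 0.0259, and the other citric acid cycle and respiratory genes named as called 0.004 or smaller. Means over probe sets were 0.99 for ACO1, 1.24 for ME3 and 1.56 for CYCS.

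**Figure D5:**
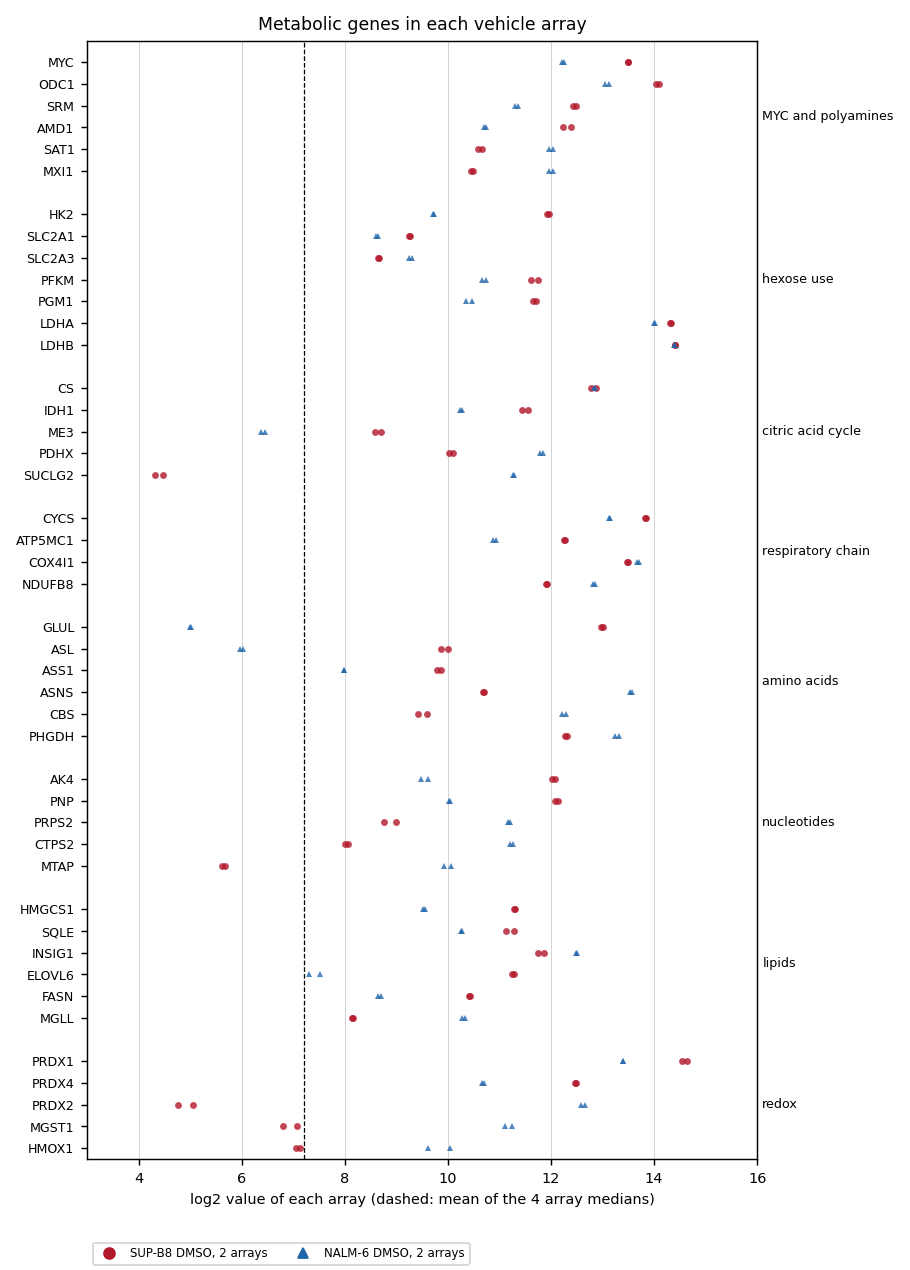
Log2 value of metabolic genes in each DMSO array (x axis), 1 row per gene, with circles for the 2 arrays labelled SUP-B8, triangles for the 2 labelled NALM-6 and a dashed line at the mean of the array medians. GLUL, ASL and ME3 lie below the line in NALM-6 and SUCLG2, MTAP, PRDX2, MGST1 and HMOX1 in SUP-B8, while LDHB and CS coincide. PRDX2 is shown by its brightest probe set, and its other probe sets differed far less.

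Amino acid genes were split, with 13 higher and 19 lower of 38 tested and a median of -0.11 over 42 members. Glutamine synthetase, GLUL, read 12.97 and 13.01 against 5.01 and 4.99. The arginine-forming enzymes ASL (10.01 and 9.87 against 6.02 and 5.97) and ASS1 (9.86 and 9.79 against 7.98 and 7.99) were higher together, as were the methionine adenosyltransferase MAT2A (1.92) and the transporter SLC38A5 (1.66). Asparagine synthetase, ASNS, which makes asparagine, was lower, at 10.68 and 10.71 against 13.53 and 13.58. CBS, which starts transsulfuration, read 9.42 and 9.59 against 12.22 and 12.30, and the cystine transporter SLC7A11 (-1.5) and GOT1 (-1.89) were lower. In serine synthesis PHGDH was lower (12.32 and 12.27 against 13.25 and 13.31), as was SHMT2 (-0.82). DDIT3, a stress factor downstream of ATF4, was lower (-1.97), whereas ATF4 itself was not called (0.03 ± 0.05). The glutamine transporter SLC1A5 differed by 0.24. Adjusted p of the called genes was 0.0022 or smaller, and means over probe sets were 4.87 for GLUL and -1.78 for ASNS.

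Of 37 tested nucleotide genes, 15 were higher and 18 lower, with a median of -0.03 over 38 members. The paired enzymes of CTP synthesis were opposed, CTPS1 higher by 1.24 and CTPS2 lower at 8.0 and 8.06 against 11.20 and 11.26. The mitochondrial adenylate kinase AK4 (12.08 and 12.02 against 9.48 and 9.61), the salvage enzyme PNP (12.08 and 12.13 against 10.03 and 10.04) and PFAS (1.15) of purine synthesis were higher. CAD (0.51) and TYMS (0.46) of pyrimidine synthesis were slightly higher. PRPS2, which makes the ribose donor, was lower (8.77 and 9.0 against 11.17 and 11.21), as were DGUOK (-0.85) and the dNTP hydrolase SAMHD1 (-0.87). MTAP, which salvages methylthioadenosine, read 5.67 and 5.61 against 9.93 and 10.06. These had adjusted p of 4.97e-05 or smaller, and the mean over probe sets of MTAP was -2.96. PPAT, the entry enzyme of purine synthesis, was called at -0.17, but the mean of its probe sets was 0.04 and the call was lost without SUP-B8 DMSO replicate 1 (-0.16) or NALM-6 DMSO replicate 2 (-0.13).

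Of 27 tested cholesterol genes, 14 were higher and 6 lower, with a median of 0.37. HMGCS1, which makes the substrate of the pathway's committed step, read 11.30 and 11.29 against 9.51 and 9.56, and MSMO1 (1.20), DHCR7 (1.07) and SQLE (0.93) were higher. The brake INSIG1 was lower (11.75 and 11.87 against 12.50 and 12.48), and MYLIP, which degrades the lipoprotein receptor, was lower (-1.46). The regulators SREBF1 (0.03 ± 0.06) and SREBF2 (-0.09 ± 0.05) were not called. The exporter ABCG1 was higher (1.05), and PMVK (-0.73) was lower.

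For fatty acids, 17 were higher and 13 lower of 42 tested, with a median of 0.06 over 47 members. ELOVL6 was higher, at 11.29 and 11.25 against 7.31 and 7.51, as were the fatty acid synthase FASN (10.42 and 10.40 against 8.70 and 8.65) and the carboxylase ACACA (1.5). The further probe set of FASN gave 0.07, and that of ACACA -0.24, the opposite direction. The desaturase SCD differed by 0.29. Other lipid enzymes were lower, with the monoglyceride lipase MGLL at 8.13 and 8.16 against 10.28 and 10.33, the acyl-CoA synthetase ACSL1 (-2.14) and the phosphatidate phosphatase LPIN1 (-2.07). In oxidation, HADHA was lower (-0.95), the regulator PPARA was higher by 1.53 and CPT1A, the gate of mitochondrial entry, was not called (0.07 ± 0.06). With the mean of its probe sets CPT1A was called at 0.14. The cholesterol and fatty acid genes named as called had adjusted p of 6.24e-04 or smaller, and FASN (0.91), ACACA (0.63), PPARA (0.73) and SCD (0.66) changed in size as means of their probe sets.

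Redox genes were balanced, with 16 higher and 16 lower of 41 tested and a median of -0.04 over 42 members. Of the peroxiredoxins, PRDX1 (14.54 and 14.64 against 13.39 and 13.40) and PRDX4 (12.48 and 12.47 against 10.66 and 10.70) were higher. PRDX2 was lower, at 4.76 and 5.05 against 12.58 and 12.65 by its brightest probe set. Its other 3 probe sets passed the filter and ranged only from -0.98 to -0.13, and the mean of all was -2.32. The size of the PRDX2 difference is therefore uncertain. GSTO1 (1.57), SOD2 (1.16) and MGST3 (1.15) were higher. MGST1 (6.81 and 7.07 against 11.11 and 11.24) and the haem oxygenase HMOX1 (7.13 and 7.05 against 9.61 and 10.04) were lower by at least 3.97 and 2.62. SRXN1 was lower by at least 1.57, and GSTK1 (-2.58) and GSTP1 (-0.73) were lower. TXN, TXNRD1 and GPX4 were not called. Adjusted p was 7.70e-05 or smaller for the called genes, and the mean over probe sets of MGST3 was 0.43.

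MTAP lies beside CDKN2A on chromosome 9, and the genes around it were read in their RefSeq order. CDKN2A, which encodes the cell-cycle inhibitor p16, read 7.65 and 7.41 against 11.92 and 11.95. Going outward from it, MTAP, KLHL9, HACD4 and FOCAD were lower by at least 2.79, 3.71, 4.0 and 1.33, and in all 4 the arrays labelled SUP-B8 lay below their medians. The interferon genes between them were dim under both labels, apart from IFNA17 (0.23), and cannot show a difference. On the other side, CAAP1 (11.36 and 11.44 against 11.20 and 11.26) and PLAA (10.07 and 10.04 against 10.81 and 10.88) were bright under both labels. Adjusted p of the 7 genes named here other than IFNA17 was 0.0222 or smaller, the largest being that of CAAP1 (0.17), which lost its call without SUP-B8 DMSO replicate 2 or NALM-6 DMSO replicate 1 (0.13 each). IFNA17 and PLAA were named after their values were seen, IFNA17 with adjusted p = 0.0498 in limma. As means of their probe sets KLHL9 (-1.68), HACD4 (-3.25) and PLAA (-0.46) were closer, and FOCAD gave -1.54 and CAAP1 -0.02. Expression arrays do not measure gene copies, so copy number was not tested.

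NALM-6 is also commonly described as carrying an IGH-DUX4 fusion, and a short list of genes described in such leukaemias was set beside the labels. Under the SUP-B8 label 8 of 9 tested members were higher and 1 lower, with a median of 1.77 over 10. In 5 of the 9 the arrays labelled NALM-6 lay below their medians. These 5 passed the filter through the other label and had to be higher, so the count is no test of the label. Beside CHST2, AGAP1 and GPR155 were higher by at least 3.68 and 3.16, CCNJ by 2.48 and STAP1 by 1.32. ERG (8.54 and 8.69 against 6.77 and 6.60), CLEC12A and PTPRM (7.78 and 7.83 against 6.5 and 6.26) were higher by at least 1.42, 0.53 and 0.61. LHFPL2 was lower (-2.52). As means of their probe sets AGAP1 gave 3.16, below the bound of its brightest probe set, and ERG gave 3.72. All 9 had adjusted p of 9.23e-07 or smaller. This is a second point at which the data depart from the usual description of the label, and which label is right cannot be told from these arrays.

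Markers of other cell types were at similar mean levels under both labels. The mean level of each list of T-cell, NK-cell, myeloid, erythroid and stromal markers lay between 6.21 and 7.36 in all 4 arrays. Of the 24 tested, 1 was called higher, NKG7 (7.42 against 6.35 as label means), and 3 lower, the perforin gene PRF1 (8.10 against 10.20), ITGAX (7.19 against 8.39) and COL5A1 (7.37 against 7.71). These 4 were named after their values were seen, and the means over probe sets were -0.72 for ITGAX and -0.08 for COL5A1. Their part in the results was not tested. RNA quality was alike, with 3′ minus 5′ differences of the control probe sets at -0.07 to 0.02 in ACTB and -0.14 to -0.11 in GAPDH across the 8 arrays. Replicate DMSO arrays correlated at r = 0.998 across probe sets, and arrays of different labels at 0.921 to 0.923.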

How the data were processed

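Total RNA of 8 cultures was hybridised to Affymetrix HG-U133 Plus 2.0 arrays. The values used are those the authors deposited, log2 per probe set. MAS5 and RMA are named in the submitters' processing notes, with their roles and versions not given in the sources used here. Gene symbols came from the platform annotation and were checked against RefSeq; 41097 of 54675 probe sets had 1 symbol, 1801 several and 11777 none here. A gene was represented by its probe set with the highest mean over 8 arrays, and tested if at least 2 arrays were above their own median. Differences were fitted with limma 3.58.1 in R 4.3.3 (lmFit, eBayes), with 1 mean per group, 4 residual degrees of freedom and Benjamini-Hochberg adjustment, and tables were made with Python 3.11.15. The fit was also run on simulated data in which only a small part of the genes differed, unlike here. That run checks the code and not the calls. Named genes were the anchors of each list, up to 4 further called members per direction by size, and the 10 highest and 10 lowest differences with all 4 arrays above their medians. Other genes given with values, among them BLK, LCK, NFATC2, BANK1, STAP1, ERG, CLEC12A and PLAA, fell outside this rule. They were named after their values were seen and are not among the 315 named called genes. The comparison, gene lists and named members were chosen with earlier results of these data known. Alternatives covered the dim-gene filter, the probe set of a gene, normalization, centring, the spread's prior, a fit of the DMSO arrays alone, the replicate block and each array left out. Some genes are not reported here.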

Additional observations from a re-analysis of the deposited data

Results flagged for a closer look

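Of the 425 called genes whose GSK126 arrays lay apart in the direction opposite to DMSO, 15 are given here, the 9 at least 2-fold apart under DMSO and those that the report's rule names. In each, every array of 1 label lay above every array of the other, in opposite order under the 2 treatments. The difference between the differences was not tested in any of them. BHLHE40, a stress-responsive repressor, differed by -1.60 under DMSO and 0.61 under GSK126. DEPP1, a FOXO target, differed by 1.39 under DMSO and -0.76 under GSK126. DNAJB1, a heat-shock co-chaperone, differed by -1.12 under DMSO and 1.68 under GSK126. DRAM1, a lysosomal p53 target, differed by 1.42 under DMSO and -0.61 under GSK126. NLRC5, the regulator of MHC class I genes, differed by 1.42 under DMSO and -0.35 under GSK126. PLAAT4, a retinoid-responsive acyltransferase, gave 1.65 under DMSO and -0.18 under GSK126. The GSK126 difference was not called in limma for PLAAT4 (adjusted p = 0.171), TDRKH (0.0529), PAX5 (0.0539) or SHPK (0.286). With all probe sets of a gene averaged, the DMSO difference was 0.79 for DEPP1, 0.68 for PSMB8-AS1, 0.48 for TDRKH, -1.05 for BHLHE40, 0.09 for PAX5 and -0.52 for SYK. In PLAAT4 and TDRKH the arrays labelled NALM-6 lay below their medians under DMSO. The antisense gene PSMB8-AS1 gave 1.32 under DMSO and -0.21 under GSK126, the endoplasmic reticulum protein SDF2L1 gave 1.16 under DMSO and -0.27 under GSK126, and TDRKH gave 1.04 under DMSO and -0.23 under GSK126. The glucose transporter SLC2A3 gave -0.62 under DMSO and 0.31 under GSK126, and SMAD7, an inhibitor of TGF-beta signals, gave -0.38 under DMSO and 0.32 under GSK126. The other 4 were small on both sides. PAX5 gave 0.20 under DMSO and -0.13 under GSK126, SYK 0.19 and -0.17, the glutamine transporter SLC1A5 0.24 and -0.22, and the sugar kinase SHPK 0.16 and -0.07.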

How the results depend on the processing

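Over the alternatives run, the number of called genes ranged from 8410 to 9518, of genes at least 2-fold apart from 2140 to 2734 and of called probe sets from 16209 to 19741, each within 1.5 times its value in the report. Leaving out 1 array at a time gave 8410 to 8866 genes, 2605 to 2684 genes at least 2-fold apart and 16209 to 17151 probe sets. With the replicate number as a block there were 8848 genes, 2636 genes at least 2-fold apart and 17218 probe sets. The numbers were not taken to pair the samples, since there are only 2 and the deviations of the DMSO groups correlated at 0.13. Of 315 named genes that were called, 295 kept call and direction in every alternative that tested them. When all probe sets of a gene were averaged, the direction reversed for IGHM (0.58), SYK (-0.52), PKM (-0.04), PPAT (0.04) and CAAP1 (-0.02), and the cause was not tested. Every named gene that lost its call in some alternative differed by 0.34 or less in size. Array number limits the precision: with 2 arrays per label, small differences are open to the omission of 1 array, and values below the array medians give only bounds.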
